A study of Homo sapiens with 15 samples.

Results

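The genes described here are 10, of 19483 named on the array, of the carnitine shuttle and of mitochondrial fatty acid oxidation, CPT1A, CPT1B, CPT1C, CPT2, ACADM, ACADVL, ACADS, HADH, HADHB and ACAA2. Their probes were found by RefSeq accession on a human expression array, which gave 11 probes of the 42405 on the array that are not controls, 1 probe per gene except for CPT1C with 2. All 11 probes passed the filter on dim signals and were among the 22823 probes tested. CPT1C, the isoform of the entry enzyme known from brain, had 2.03-fold and 1.62-fold higher signal at its 2 probes in cells labelled CYGB+ than in cells labelled NCE. CPT1B, the muscle isoform, was 1.32-fold lower and HADH, a dehydrogenase inside the oxidation cycle, was 1.39-fold higher. The other 7 genes did not pass the test, and the HADH difference was no longer past the threshold once the microscope slide was taken into account. Under alternative settings the CPT1B call was lost in 9 and the HADH call in 13.

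The cells were PE/CA-PJ41, a line from a human oral squamous cell carcinoma. Those labelled CYGB+ carried the pCMV6-Neo plasmid with the human cytoglobin (CYGB) cDNA and grew out as a stable line under the selection drug G418, picked with a cloning ring, so they stand for 1 clone. The labels give NCE cells an empty transfection vector, whereas the study's text calls its NCE control un-transfected, so whether the controls share the plasmid, the selection and the cloning step is not settled here. Both were untreated and were kept for 24 h before RNA was taken, on 3 occasions for each group, which gave 3 biological replicates a group. Each NCE replicate was hybridised to 3 arrays and each CYGB+ replicate to 2, 15 arrays in all. Array repeats were averaged before the main test, whereas the fits with slide as a term used the single arrays. Values below are log2 signals of the green dye, and a difference is always CYGB+ minus NCE.

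Fatty acids enter the mitochondrion as carnitine esters. CPT1 enzymes move the acyl group from coenzyme A to carnitine at the outer membrane and are inhibited by malonyl-CoA, the carrier SLC25A20 exchanges acylcarnitine for carnitine across the inner membrane, and CPT2 restores acyl-CoA inside. Acyl-CoA dehydrogenases of different chain-length preference (ACADVL, ACADM, ACADS), the trifunctional protein of HADHA and HADHB, the short-chain dehydrogenase HADH and the thiolase ACAA2 then shorten the chain by repeated rounds of oxidation.

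The check of the labels came first. CYGB, the gene carried by the plasmid, had signals of 11.87, 12.16 and 11.94 in NCE replicates 1 to 3 and of 11.36, 12.42 and 11.96 in CYGB+ replicates 1 to 3. The groups overlapped, and the difference was -0.07 ± 0.251 (SE, n = 3 against 3, limma adjusted p = 0.879). The probe was therefore bright in both groups and not higher in the cells labelled CYGB+, which goes against the labels, and where this probe lies relative to the cDNA is not in the files used here. The bright signal in NCE also differs from the study's description of the parent line as one that does not express cytoglobin. For its high-expressing line, used on the arrays, the study reports the transgene by genomic PCR and cytoglobin by qPCR and in-cell ELISA. It also reports raised haem protein. These assays were not analysed here. The labels name the green dye for every sample, whereas the study's methods put control RNA in the other dye. Because the CYGB probe did not separate the groups, CYGB+ and NCE below mean cells carrying those labels. Each direction, and the source of the green signal, rests on the labels.

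The arrays lay on 2 slides. Slide 1 held 8 NCE arrays, and slide 2 held all 6 CYGB+ arrays with 1 array of NCE replicate 1, so slide and group can hardly be told apart. The median local green background was 24 to 29 on slide 1 and 37 to 43 on slide 2. The first array of CYGB+ replicate 1 stood apart, with a mean correlation of 0.942 with the other arrays of its group against 0.973 to 0.989 for the other arrays. All 7 squamous epithelium markers were measured, with a summed log2 level of 14.86 to 15.09 in NCE and 14.78 to 15.44 in CYGB+. Of these the keratin KRT6A was called, lower in CYGB+ (-0.51, limma adjusted p = 0.0264), and without overlap of the groups KRT14 differed by 0.72 and DSG3 by -0.27 (limma adjusted p = 0.0817 and 0.123). Of 5 fibroblast markers, 2 passed the filter and DCN, LUM and PDGFRB did not, and their summed level was 8.94 to 9.07 in NCE and 8.49 to 8.58 in CYGB+. The fibroblast marker COL1A2 was lower in CYGB+ (-1.33 ± 0.101, SE, limma adjusted p = 0.00337) and COL1A1 differed by 0.10 (limma adjusted p = 0.71), and the part of these markers in the results was not tested. Of 3 leukocyte and 3 endothelial markers 1 each passed the filter, CD14 and CDH5, and neither was called.

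The promoters of the shuttle genes are shown because CPT1C changed while CPT1A and CPT2 were not called in the same cells. They come from RefSeq (GRCh38.p14), each with 250 bases before and 50 after the annotated start, and 9 of the 10 genes had an entry, CPT1B being without one. Capitals mark GGGCGG, the GC box, found on either strand. CPT1C lies at chr19:49691246-49691545 on the + strand, CPT1A at chr11:68844228-68844527 on the - strand and CPT2 at chr1:53196574-53196873 on the + strand.
CPT1C: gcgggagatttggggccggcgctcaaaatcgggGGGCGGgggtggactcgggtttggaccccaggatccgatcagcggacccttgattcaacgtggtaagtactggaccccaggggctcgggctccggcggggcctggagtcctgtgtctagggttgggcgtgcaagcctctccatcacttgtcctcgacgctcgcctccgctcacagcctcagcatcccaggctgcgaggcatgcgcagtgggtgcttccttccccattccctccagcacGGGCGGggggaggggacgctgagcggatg
CPT1A: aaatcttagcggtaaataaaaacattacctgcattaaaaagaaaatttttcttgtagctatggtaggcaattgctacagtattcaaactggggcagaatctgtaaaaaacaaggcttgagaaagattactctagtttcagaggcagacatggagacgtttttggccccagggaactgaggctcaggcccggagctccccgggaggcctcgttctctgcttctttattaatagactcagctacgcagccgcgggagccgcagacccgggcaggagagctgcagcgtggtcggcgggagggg
CPT2: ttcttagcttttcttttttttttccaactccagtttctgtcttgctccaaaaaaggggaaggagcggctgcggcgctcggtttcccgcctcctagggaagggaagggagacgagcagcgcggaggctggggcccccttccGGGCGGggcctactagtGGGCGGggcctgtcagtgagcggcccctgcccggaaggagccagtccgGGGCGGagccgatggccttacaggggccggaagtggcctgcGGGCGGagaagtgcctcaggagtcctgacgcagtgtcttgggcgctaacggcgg

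The CPT1C window held 67% G and C and 2 GC boxes, the CPT2 window 65% and 4 GC boxes, and the CPT1A window 50% and none, against a median of 58.7% G and C over all 35114 promoters of that length. A GC box was present in 45% of all promoters. Of the other genes, ACADM held 4 and ACADVL, ACADS and HADHB 2 each, and HADH and ACAA2 held none. The letters AGGTCA, the half-site of nuclear receptors such as PPARA, were in none of the 9 windows and in 13.8% of all promoters. CCAAT (34.6% of all promoters), CACGTG (7.26%) and TATAAA (11.5%), also searched on both strands, were in none of the 9 either. The HADH entry starts inside the annotated span of the gene.

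**Figure D1:**
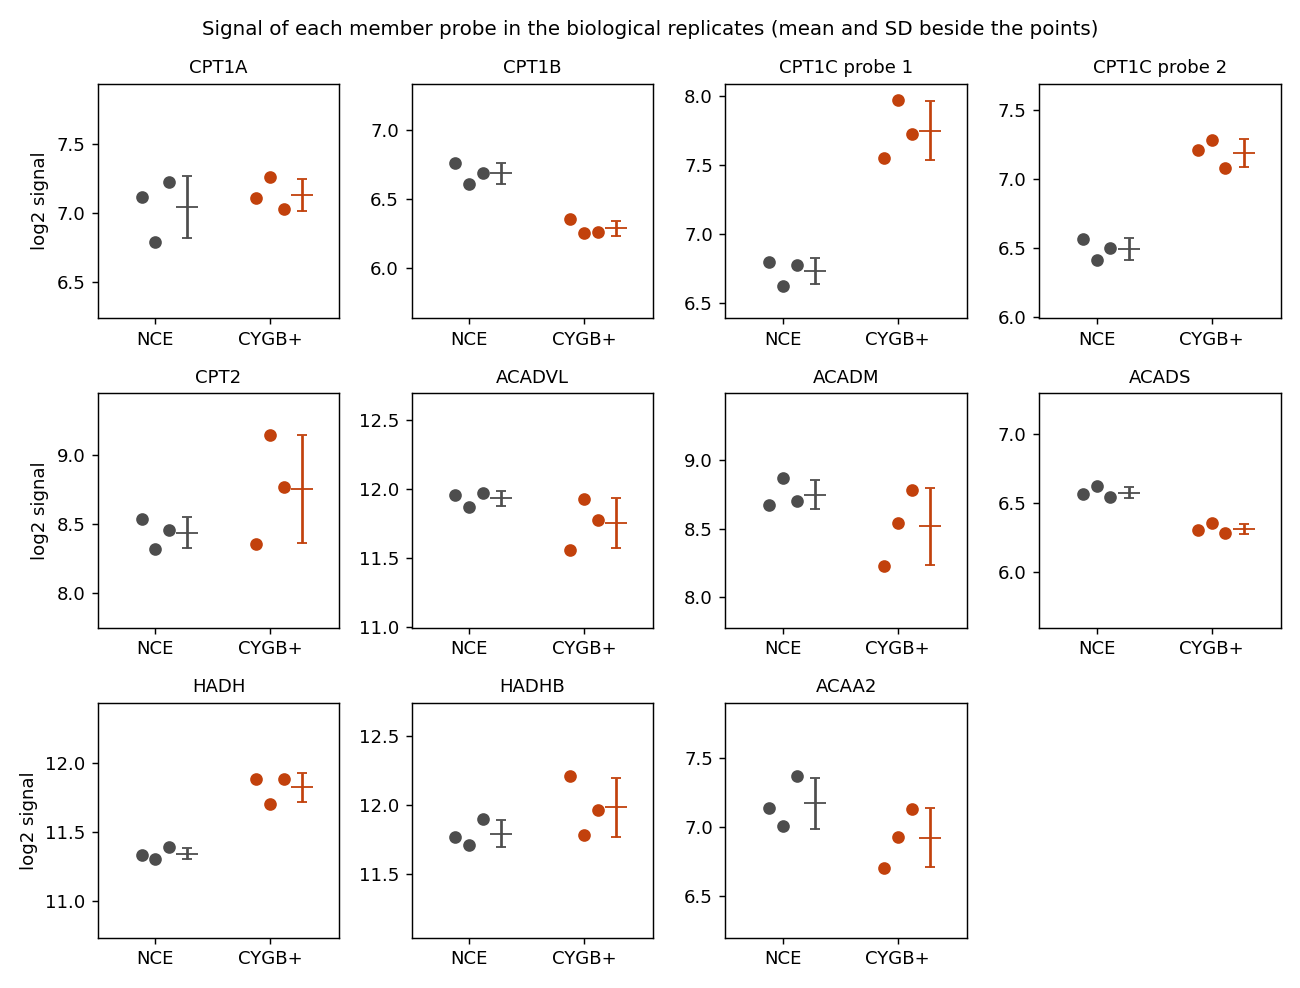
Green log2 signal (y axis) of the 11 probes in the 3 NCE (grey) and 3 CYGB+ (orange) biological replicates, with the mean and SD beside the points; every panel spans the same log2 range. Both CPT1C probes and HADH have all CYGB+ replicates above all NCE replicates, and CPT1B and ACADS have them all below.

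Across all probes, 5.19% were called higher in CYGB+ and 5.42% lower, 10.6% in either direction (limma, adjusted p under 0.05). Of the 11 probes here, 3 were called higher, from 2 genes, and 1 lower. The replicate values of the groups did not overlap for 3 probes that were higher, against 16.5% of all probes, and for 2 that were lower, against 16.9%, or 33.4% of all probes in either direction. The median difference over the 10 genes, with the brighter CPT1C probe, was -0.04, and that over all probes tested was 0.00054.

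CPT1C differs from the other CPT1 isoforms in that it lies in the endoplasmic reticulum and has little carnitine acyltransferase activity of its own. Its brighter probe had log2 signals of 6.79, 6.62 and 6.78 in NCE and 7.55, 7.97 and 7.73 in CYGB+. Every CYGB+ replicate lay above every NCE replicate. The difference was 1.02 ± 0.126 (SE, 95% interval 0.72 to 1.32, limma adjusted p = 0.00731). The second CPT1C probe read 6.56, 6.41 and 6.50 in NCE and 7.21, 7.28 and 7.08 in CYGB+, again without overlap. Its difference was 0.70 ± 0.095 (SE, 95% interval 0.48 to 0.92, limma adjusted p = 0.00848). The second probe was well above background on 8 of the 9 NCE arrays and on all 6 CYGB+ arrays.

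Both CPT1C probes were dim, and the size of their difference depended on how the background was handled. Without the offset of 50 that was added to each signal, the differences were 1.56 (limma adjusted p = 0.00366) and 1.27 (limma adjusted p = 0.00422). On the scanner software's processed signal they were 1.89 and 1.77 (limma adjusted p = 0.00467 and 0.00376). The value with the offset thus understated the change relative to these other settings, by over 1.5 times in log2 units.

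The groups were also apart on single arrays of slide 2. The NCE array on slide 2 read 6.60 at the brighter probe, inside the range of 6.55 to 6.93 of the NCE arrays on slide 1 and below the 7.18 to 8.06 of the CYGB+ arrays beside it. At the second probe it read 6.65, above the 6.32 to 6.57 of the NCE arrays on slide 1 and below the 7.02 to 7.33 of the CYGB+ arrays. With slide as a term the differences were 1.19 (limma adjusted p = 0.0206) and 0.56 (limma adjusted p = 0.0191). Within slide 2, where NCE is a single replicate, they were 1.15 and 0.54 (limma adjusted p = 0.234 and 0.394), and the lone NCE sample is there assumed to vary like the CYGB+ samples. With the methods' plain test per probe the brighter probe just missed the threshold (adjusted p = 0.052).

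CPT1B, the isoform of heart and skeletal muscle, read 6.76, 6.61 and 6.69 in NCE and 6.35, 6.25 and 6.26 in CYGB+. All CYGB+ values were below all NCE values. The difference was -0.40 ± 0.087 (SE, 95% interval -0.60 to -0.20, limma adjusted p = 0.0324). The probe was dim, and without the offset the difference was -0.93 (limma adjusted p = 0.0108). With slide as a term it was -0.50 (limma adjusted p = 0.0261), and within slide 2 it was -0.52 (limma adjusted p = 0.382), the NCE array there reading 6.81 and the CYGB+ arrays 6.21 to 6.41. The call was lost when any one of NCE replicates 1, 2 and 3 or CYGB+ replicates 2 and 3 was left out, with limma adjusted p of 0.0993, 0.0955, 0.123, 0.0733 and 0.0846 and differences of -0.36, -0.44, -0.40, -0.38 and -0.39. It was also lost with scaling to the 75th percentile in place of quantiles (-0.39, limma adjusted p = 0.218), though not with the same scaling of the processed signal (-1.43, limma adjusted p = 0.00908), and with the methods' plain test per probe (adjusted p = 0.0534).

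CPT1A, the isoform of liver and of most other tissues, read 7.12, 6.78 and 7.22 in NCE and 7.11, 7.26 and 7.03 in CYGB+. The groups overlapped, and the difference was 0.09 ± 0.135 (SE, limma adjusted p = 0.714). Its 95% interval ran from -0.23 to 0.41, which leaves out a change of the size seen at either CPT1C probe. The sign was not fixed, as it became -0.07 with slide as a term and -0.04 without NCE replicate 2.

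CPT2, the enzyme on the matrix side, read 8.53, 8.31 and 8.46 in NCE and 8.35, 9.14 and 8.77 in CYGB+. CYGB+ replicate 1 lay inside the NCE range and the other two above it. The difference was 0.32 ± 0.193 (SE, 95% interval -0.14 to 0.77, limma adjusted p = 0.335). The 2 arrays of CYGB+ replicate 1 read 7.79 and 8.91, and the lower one is the array that stood apart from its group. Without that array the difference was 0.51 (limma adjusted p = 0.0226), a setting chosen after seeing the data, and with slide as a term it was 0.33 (limma adjusted p = 0.838).

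**Figure D2:**
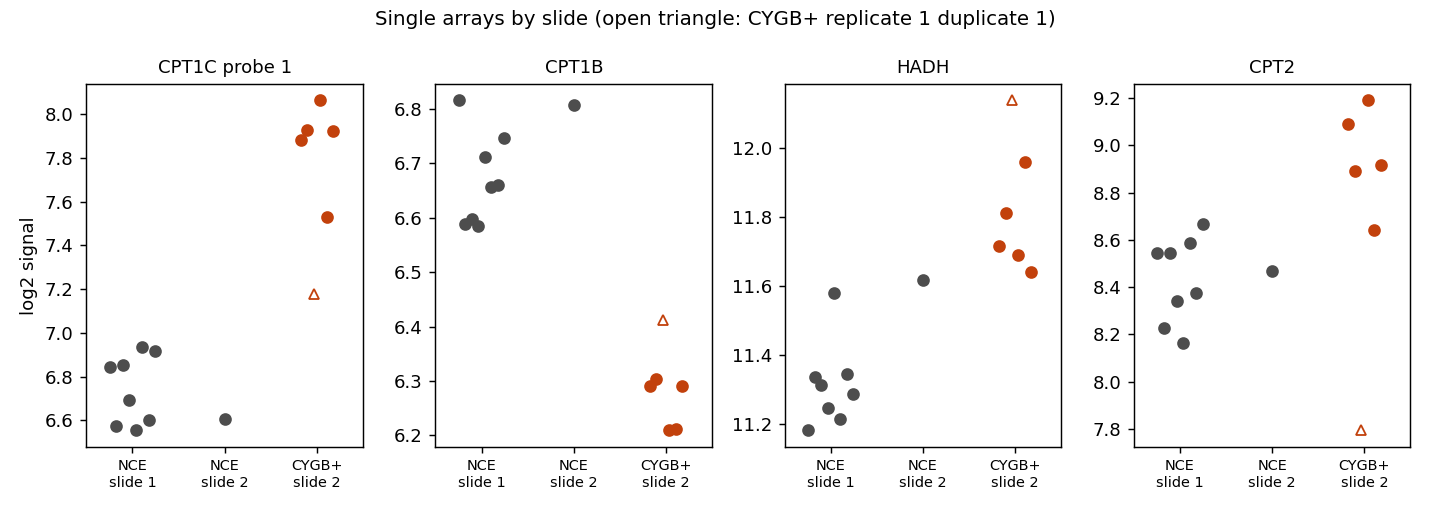
Green log2 signal (y axis) of CPT1C (brighter probe), CPT1B, HADH and CPT2 on each of the 15 arrays, by group and slide, with the array that stood apart as an open triangle. The NCE array on slide 2 sits with the slide 1 NCE arrays for CPT1C and CPT1B, while for HADH it reads 11.62, close to the lowest CYGB+ array at 11.64.

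Of the acyl-CoA dehydrogenases, which take the first oxidation step, none was called. ACADVL, for very long chains, had a difference of -0.18 ± 0.113 (SE, limma adjusted p = 0.355) with replicates of 11.88 to 11.97 in NCE and 11.56 to 11.93 in CYGB+. ACADM, for medium chains and the enzyme lost in the common inherited deficiency, had -0.23 ± 0.149 (SE, limma adjusted p = 0.371), from 8.67 to 8.87 in NCE and 8.23 to 8.78 in CYGB+. For both genes the lowest CYGB+ value came from replicate 1, which holds the array that stood apart, and without that array the differences were -0.05 and -0.14.

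ACADS, for short chains, read 6.57, 6.62 and 6.54 in NCE and 6.31, 6.35 and 6.28 in CYGB+. The groups did not overlap, and the difference of -0.26 ± 0.080 (SE, 95% interval -0.45 to -0.07) missed the threshold (limma adjusted p = 0.0850). It was a dim probe, well above background on 5 of 6 CYGB+ arrays, and 1 flagged spot was left out. Without the offset the difference was -0.64 and passed (limma adjusted p = 0.0286). The NCE array on slide 2 read 6.40, just above the CYGB+ range of 6.22 to 6.39 and under the 6.48 to 6.69 of the NCE arrays on slide 1, and with slide as a term the difference was -0.07 (limma adjusted p = 0.900).

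HADH, which oxidises the hydroxyacyl-CoA intermediate of shorter chains, read 11.34, 11.31 and 11.39 in NCE and 11.89, 11.70 and 11.88 in CYGB+. The groups did not overlap. The difference was 0.48 ± 0.092 (SE, 95% interval 0.26 to 0.70, limma adjusted p = 0.0229). The NCE array on slide 2 was 0.42 above the mean of the arrays of the same replicate on slide 1. With slide as a term the difference was 0.17 (limma adjusted p = 0.815), and within slide 2 it was 0.21 (limma adjusted p = 0.775). The call was also lost without the offset (limma adjusted p = 0.0620) and when NCE replicate 1, 2 or 3 or CYGB+ replicate 3 was left out (limma adjusted p = 0.0691, 0.102, 0.0845 and 0.0657, at differences of 0.48, 0.46, 0.50 and 0.45), and in 13 of 21 alternatives in all.

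HADHB, the thiolase subunit of the trifunctional protein, read 11.77, 11.71 and 11.90 in NCE and 12.21, 11.78 and 11.96 in CYGB+, with a difference of 0.19 ± 0.127 (SE, 95% interval -0.11 to 0.49, limma adjusted p = 0.382). Its highest value came from the array that stood apart, at 12.73, and without that array the difference was 0.02. HADHA, the partner subunit, differed by 0.08 ± 0.208 (SE, limma adjusted p = 0.848). The study states that its array lacked HADHA, whereas a probe named as this gene was measured here. ACAA2, the thiolase that releases acetyl-CoA, read 7.14, 7.004 and 7.37 in NCE and 6.70, 6.93 and 7.13 in CYGB+, with overlap and a difference of -0.25 ± 0.144 (SE, 95% interval -0.59 to 0.09, limma adjusted p = 0.311).

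**Figure D3:**
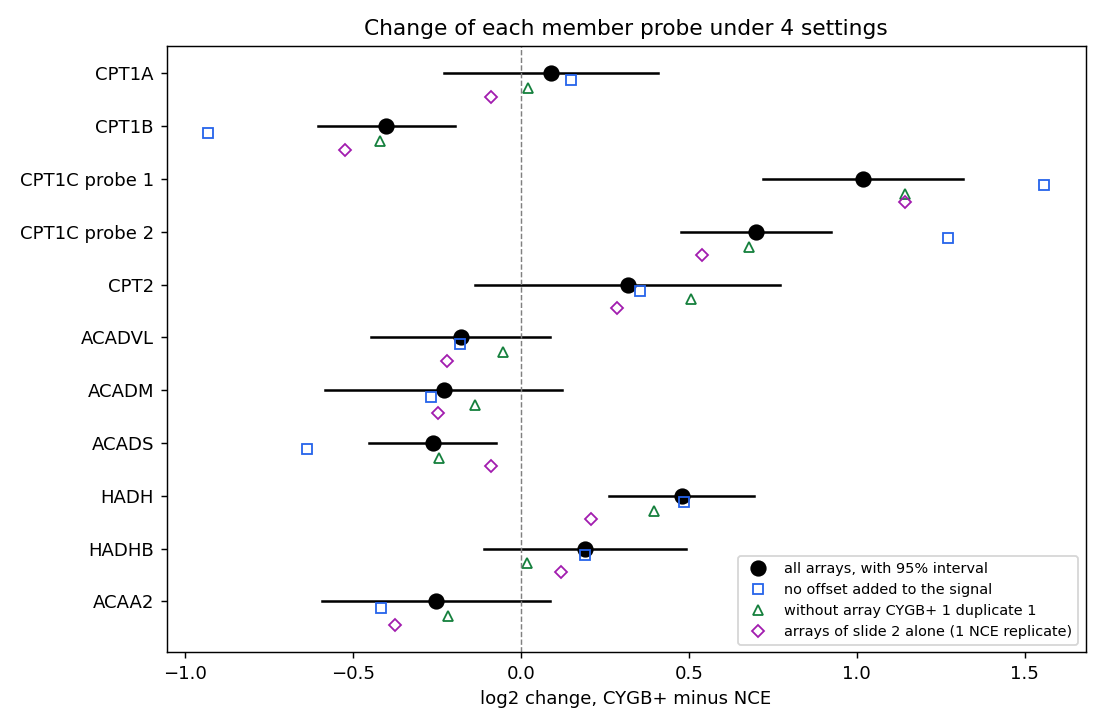
Difference in log2 signal, CYGB+ minus NCE (x axis), of the 11 probes. Black points and lines are the values from all arrays with their 95% intervals, and open symbols the same difference without the offset, without the array that stood apart and on slide 2 alone. CPT1C and CPT1B keep their sign in all 4 settings, HADH moves from 0.48 to 0.21 on slide 2, and CPT1A changes sign there.

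The other genes of the pathway were taken from 6 lists of 86 genes, each gene read at its brightest probe. Of the 72 measured, 5 were called higher and 7 lower, or 16.7%, with a median difference of 0.04, against 5.19% higher, 5.42% lower and 10.6% in all over the probes tested. Carnitine synthesis and transport held no call among 7 measured genes, the carnitine importer SLC22A5 differing by 0.20 (limma adjusted p = 0.216) and the carrier SLC25A20 by -0.06 (limma adjusted p = 0.826). Electron transfer from the dehydrogenases held none among 3, with ETFA at 0.05, ETFB at 0.24 and ETFDH at 0.30 (limma adjusted p = 0.813, 0.387 and 0.0613).

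Fatty acid uptake and activation held 2 higher and 2 lower of 14 measured. SLC27A1, a fatty acid transporter, was lower by -0.82 ± 0.151 (SE, limma adjusted p = 0.0202) and ACSS2, the cytosolic acetyl-CoA synthetase, by -0.80 ± 0.124 (SE, limma adjusted p = 0.0123). With slide as a term both stayed lower, at -1.09 and -0.94 (limma adjusted p = 0.0474 and 0.00579). SLC27A1 lost its call in 6 of 20 alternatives, among them without NCE replicate 1, 2 or 3 or CYGB+ replicate 3 (limma adjusted p = 0.0566, 0.0501, 0.0731 and 0.0516), and its second, dimmer probe differed by 0.04. ACSS2 lost its call in 4 of 21, among them without NCE replicate 2 or 3 (limma adjusted p = 0.053 and 0.0562). SLC27A2, an acyl-CoA synthetase for very long chains, was higher by 0.46 ± 0.098 (SE, limma adjusted p = 0.0304) and by 0.70 with slide as a term (limma adjusted p = 0.0119), and lost its call in 8 of 20 alternatives, among them without NCE replicate 1, 2 or 3 or CYGB+ replicate 2 or 3 (limma adjusted p = 0.0916, 0.101, 0.106, 0.0692 and 0.0815). ACSL1, which activates long-chain fatty acids and is named here after its value was seen, was higher by 0.44 (limma adjusted p = 0.0283).

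The other mitochondrial enzymes held 1 higher and 1 lower of 15 measured, a pair of isomerases that act on unsaturated chains. ECI1 was higher by 0.37 ± 0.090 (SE, limma adjusted p = 0.0467) and ECI2 lower by -0.45 ± 0.099 (SE, limma adjusted p = 0.0336). Neither stayed past the threshold with slide as a term (0.21 and -0.19, limma adjusted p = 0.75 and 0.681), and with the replicate number as a block ECI1 was not called (limma adjusted p = 0.0729). In all, ECI1 lost its call in 16 of 21 alternatives and ECI2 in 15 of 21, and leaving out single replicates ended it for ECI2 in each case (limma adjusted p = 0.0521 to 0.136) and for ECI1 in each case but CYGB+ replicate 1 (limma adjusted p = 0.0886 to 0.18). ECHS1, the short-chain hydratase, differed by -0.13 (limma adjusted p = 0.699).

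Peroxisomal oxidation, which shortens very long and branched chains, held 2 higher and 3 lower of 15 measured. PHYH, which starts the breakdown of phytanic acid, was lower by -0.67 ± 0.088 (SE, limma adjusted p = 0.00794) and by -0.77 with slide as a term (limma adjusted p = 0.0233). PECR, a peroxisomal enoyl-CoA reductase, was lower by -0.62 ± 0.106 (SE, limma adjusted p = 0.0168), and by -0.63 with slide as a term (limma adjusted p = 0.176). PECR lost its call in 9 of 20 alternatives, among them without NCE replicate 1, 2 or 3 or CYGB+ replicate 3 (limma adjusted p = 0.0564, 0.0766, 0.0611 and 0.0505), and PHYH in 1 of 21, slide 2 alone (limma adjusted p = 0.263). Named after their values were seen were DECR2, a peroxisomal dienoyl-CoA reductase, higher by 0.47 (limma adjusted p = 0.0253), and ACOX2, which was not well above background on any CYGB+ array and was at least 1.32-fold lower (limma adjusted p = 0.0492).

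Among regulators and PPAR target genes, 1 of 18 measured was called. PPARG, the nuclear receptor of fat cell differentiation, was lower at its brighter probe by -0.74 ± 0.085 (SE, limma adjusted p = 0.00601) and by -0.93 ± 0.107 (SE, limma adjusted p = 0.00607) at the second, and with slide as a term the brighter probe gave -0.64 (limma adjusted p = 0.00316). It lost its call in 2 of 21 alternatives, both on slide 2 alone. PPARA, the receptor that drives oxidation genes in liver, differed by -0.09 (limma adjusted p = 0.594) and ACACB, which makes the malonyl-CoA that inhibits CPT1, by 0.06 (limma adjusted p = 0.785). ESRRA, a nuclear receptor of mitochondrial genes named after its values were seen, had 1 probe called (0.65, limma adjusted p = 0.0353) and a brighter one that was not (0.23, limma adjusted p = 0.569).

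**Figure D4:**
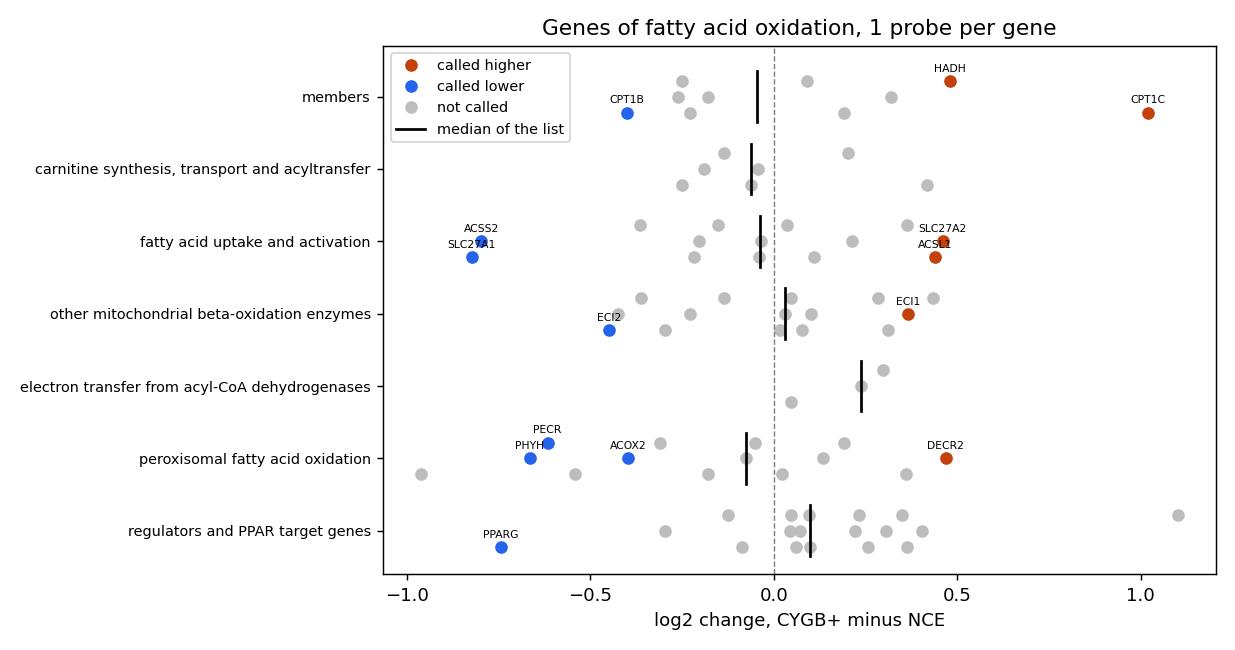
Difference in log2 signal, CYGB+ minus NCE (x axis), of the measured genes at their brightest probe, by list, with calls coloured by direction and a bar at each list's median. CPT1C, at 1.02, lies farther right than the other genes called higher, and the list medians lie between -0.07 and 0.24. ANGPTL4, which was not called (limma adjusted p = 0.166), lies farther right still, at 1.10.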

How the data were processed

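RNA (50 ng) from NCE and CYGB+ PE/CA-PJ41 cells was labelled and read on an Agilent 2-colour human array. Per the file headers the scans were extracted with Feature Extraction 10.7.3.1, and the deposited scanner files hold green and red spot intensity, local background and flags. The labels name the green dye (Cy3) for every sample, whereas the study's methods describe control RNA in Cy5 and RNA of cytoglobin-expressing cells in Cy3. That the green signal of the NCE arrays comes from NCE RNA therefore rests on the labels. The green channel was used here, and of the red only the share of spots well above background. The authors' value table holds the natural log of background-subtracted green signal, scaled per array in a way that is not stated and centred on each probe's median over the CYGB+ arrays, and it was used only as an alternative.

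Median spot intensity was corrected with normexp on the median local background (offset 50), the median taking the place of the mean that the plan had named, uneven, outlying and manually flagged spots were dropped, and log2 values were quantile normalised over 15 arrays. Spots of a probe and then arrays of a biological replicate were averaged, the latter not in the fits to single arrays. Probes well above background on at least a share of 0.5 of the arrays of a group were tested with limma 3.58.1 (R 4.3.3), 3 against 3, with Benjamini-Hochberg adjustment at 0.05. It is not stated that replicates were separate cultures beyond the 3 RNA extractions. The p-values therefore set a difference against the spread between these samples, and having 3 replicates a group limits their precision. Accessions were named through RefSeq (GRCh38.p14), which gave 1 current symbol for 25422 probes.

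Same-numbered NCE and CYGB+ replicates deviated together from their group means (correlations 0.206, 0.228 and 0.299), all above the 0.1 set for pairing, and the number was used as a block in an alternative. Of the 6 pairs with different numbers 3 also correlated above 0.1 (0.168, 0.211 and 0.286), so the correlations alone do not single out the numbering. Genes named in the text were the 10 genes at every probe, the 3 called genes with the largest difference in each list (1 gene is not reported here, nor drawn), and a set of shuttle, electron transfer and regulator genes. The members and lists were chosen with earlier results of these data known. In all, 21 alternatives were computed, 3 of them chosen after seeing the data. The pathway genes named after their values were seen were not followed in these alternatives.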

Additional observations from a re-analysis of the deposited data

Results flagged for a closer look

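HADHB carried both outlying arrays. Among the 6 CYGB+ arrays, the first array of replicate 1 was the highest, and its gap to the next array made up 0.635 of the group's whole range. Among the 9 NCE arrays, the second array of replicate 3 was the highest, with a gap of 0.512 of the range. These were 2 of 24 tests over arrays, and chance flags about 1 in 20 groups. The red channel, which the comparisons do not use, carried signal, with a median over arrays of 58.9% of spots well above background.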

How the results depend on the processing

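Of the 30 differences followed (members, named pathway genes and CYGB), 21 kept their sign in all alternatives that measured them. With slide as a term, ACACB was -0.20, CPT1A -0.073, ECHS1 0.031, HADHA -0.15, SLC22A5 -0.067 and SLC25A20 0.19, each of the opposite sign. On slide 2 alone ACACB was -0.19, CPT1A -0.088, HADHA -0.14, SLC22A5 -0.032 and SLC25A20 0.28, and with the array that stood apart also left out ACACB was -0.26, CPT1A -0.16, ECHS1 0.22, HADHB -0.053, SLC22A5 -0.15 and SLC25A20 0.19. Without that array alone ACACB was -0.0016 and ECHS1 0.12, and without 3 arrays -0.045 and 0.10. CYGB turned to 0.081 on the processed signal scaled to the 75th percentile and to 0.047 in the authors' table. None of these values passed the test. Leaving out 1 replicate at a time gave -0.33 to 0.20 for CYGB, -0.042 to 0.16 for ACACB, -0.039 to 0.18 for CPT1A, -0.29 to 0.088 for ECHS1, -0.032 to 0.090 for ETFA, -0.093 to 0.33 for HADHA and -0.21 to 0.042 for SLC25A20. The sign turned without NCE replicate 1 (ETFA, -0.032), NCE replicate 2 (CPT1A, -0.039, SLC25A20, 0.042, and CYGB, 0.0084), CYGB+ replicate 1 (ACACB, -0.042, ECHS1, 0.088, and CYGB, 0.20), CYGB+ replicate 2 (HADHA, -9.8e-05) and CYGB+ replicate 3 (ETFA, -0.0090, and HADHA, -0.093). The cause was not tested.

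Against 1184 probes called higher and 1238 lower, the counts were 727 and 711 with normexp and the 75th percentile, 764 and 680 in the authors' table, 300 and 289 with the methods' t-test after Benjamini-Hochberg adjustment, 2449 and 2496 over single arrays, 322 and 448 with slide as a term, 3 and 1 on slide 2 alone, 2003 and 2149 without the array that stood apart, 2481 and 2602 without 3 arrays, and 299 and 423 on slide 2 without that array. The processed signal scaled to the 75th percentile gave 738 lower. Leaving out 1 replicate gave 226 to 1215 higher and 266 to 1192 lower. Member probes called higher were 0 in the authors' table, which lacks CPT1B, CPT1C and ACADS, 1 with the methods' t-test, 0 on slide 2 and 1 there without the array. Member probes called lower were 2 (CPT1B and ACADS) on both processed signals, without the offset, without the filter and over single arrays, and 0 with normexp and the 75th percentile, in the authors' table and on slide 2 with or without that array, and 0 to 1 when leaving out 1 replicate. On slide 2 alone limma called no member at 11 measured probes, where 2402 of all probes had an unadjusted p under 0.05.

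With the replicate block 2888 probes were called against 2422, and no member call changed (CPT1C adjusted p = 0.0155 and 0.0181, CPT1B 0.042, HADH 0.0311, CYGB 0.794). Of the named pathway genes ECI1 alone changed its call. The difference of dim probes was limited by signal over background, and the brighter CPT1C probe kept its call in 18 of 20 alternatives.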
